A study of Mus musculus with 12 samples.

Results

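Type I interferon-stimulated genes were examined in lung and liver of mice carrying a 4T1 mammary tumor and of control mice. The set holds 36 named genes, taken by gene symbol from the annotation of the array, out of 12393 genes with a probe set of their own. Of the 36 genes, 30 had at least 1 such probe set and 6 had none. Tumor-bearing mice had an orthotopic 4T1 tumor and control mice were injected orthotopically with phosphate-buffered saline (PBS), and tissue was taken on day 7 in both groups. 4T1 is a mouse mammary carcinoma cell line that spreads to lung and liver. All animals were female nude NCR mice, which lack a thymus and so most mature T cells. The 4 groups, with 3 arrays each, were tumor lung, control lung, tumor liver and control liver, 12 arrays in all, and the design text takes lung and liver from the same 3 tumor-bearing and 3 control mice. The sample titles call the tissues of tumor-bearing mice pre-metastatic lung and pre-metastatic liver. Here they are named tumor lung and tumor liver. The labels state neither the age of the mice nor the number of cells injected.

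Type I interferons (interferon alpha and beta) bind a receptor made of Ifnar1 and Ifnar2, and the kinases Jak1 and Tyk2 then activate the factor ISGF3, which contains Stat2 and Irf9. ISGF3 binds interferon-stimulated response elements in promoters and turns on genes for RNA and DNA sensors, for antiviral effectors and for the ISG15 protein tag. In liver and lung many of these genes are also expressed at a resting level, in immune cells as well as in epithelium, endothelium and hepatocytes.

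The response element read by interferon regulatory factors has a core of 2 GAAA boxes, and the promoter stretches of 6 members are printed to show it. RefSeq promoter windows of the assembly GRCm38.p6 run from 250 bases before to 50 bases after a transcript start, and 27 of the 36 genes had one. The letters GAAANNGAAA were searched on both strands, overlapping matches included, so that on the opposite strand the match reads TTTCNNTTTC. They were found for 14 of the 27 genes (51.9%), and for 1079 of all 27025 genes with a window (3.99%). Capitals mark the matched letters, and distances are counted from the transcript start.
Ifit1: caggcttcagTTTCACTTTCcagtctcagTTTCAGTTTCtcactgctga
Ifit3: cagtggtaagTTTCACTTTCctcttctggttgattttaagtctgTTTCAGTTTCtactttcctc
Isg15: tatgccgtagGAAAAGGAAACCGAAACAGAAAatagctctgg
Bst2: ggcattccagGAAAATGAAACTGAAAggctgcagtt
Stat2: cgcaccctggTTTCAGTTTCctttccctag
Trim30a: agttctttagTTTCTTTTTCtcagttcctg

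The Ifit1 stretch lies at chr19:34640775-34640823 on the plus strand, from position -114 to -66, and holds 2 separate matches. The Ifit3 stretch lies at chr19:34583363-34583426 on the plus strand and also holds 2 separate matches. In the Isg15 stretch, at chr4:156200865-156200906 on the minus strand, 3 overlapping matches form 1 block. The Bst2 stretch (chr8:71537577-71537612, minus strand) has 2 overlapping matches, whereas the Stat2 stretch (chr10:128270266-128270295, plus strand) and the Trim30a stretch (chr7:104465210-104465239, minus strand) have 1 each. A match is a description of the letters, not a shown binding site. The median tumor minus control difference (log2) in lung was 0.209 for the 10 tested members with a match and 0.298 for the 8 without, and in liver it was 0.208 for 10 with a match and 0.387 for 8 without. Of the genes described below, Irf9, Oasl2, Samhd1, Ifit2, Isg20, Trim25, Irf7 and Cmpk2 had a window without a match. No window was listed for Usp18, Zbp1, Rtp4, Parp14 and Dhx58, so these genes were not searched.

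Values are the authors' log2 GCRMA values per probe set, so a difference of 1 is a doubling of signal, and a level of one gene cannot be set against that of another. The lowest value on every array was 2.04. A gene was tested when it was above 4 on at least 3 of the arrays fitted. Mx1 and Mx2, which encode dynamin-like GTPases that block viral replication, and Oas1b and Oas3 of the oligoadenylate synthetase family stayed between 2.04 and 2.09 on all 12 arrays. Oasl1, an oligoadenylate synthetase-like gene, passed 4 on only 2 arrays. It read 4.50, 4.46 and 3.43 in tumor livers, against 3.49, 3.62 and 2.78 in control livers, with all lung arrays at 2.11 or below. The tumor and control liver values of Oasl1 overlapped, and no test was made. Oas1g, Ddx58, Ifi44, Xaf1 and Herc6 are not analysed here, and Isg15 was measured only by a probe set listed for Isg15 and Gm9706 together. This left 24 members tested in lung, 24 in liver and 25 over all 12 arrays.

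The arrays carried the marker genes of their labelled tissue. The 8 alveolar epithelium markers averaged 13.94 to 14.08 on tumor lung arrays and 13.93 to 14.20 on control lung arrays, and the 8 hepatocyte markers averaged 15.64 to 15.72 on tumor liver arrays and 15.55 to 15.62 on control liver arrays (log2). In lung only 6 of the hepatocyte markers were above 4 on at least 3 arrays. Tumor lung 1 and control lung 3 stood apart, with means of these 6 markers of 11.06 and 12.35 and the other 4 lung arrays at 5.09 to 7.84. The lung fits of the members, their count past the threshold and their median difference were also computed without this pair. Over all genes, 49 of 7907 rose and 9 fell in tumor lung, and 49 of 7712 rose and 95 fell in tumor liver (limma adjusted p under 0.05). Because whole tissue was measured, fewer cells of a type and less RNA per cell cannot be told apart.

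In tumor lung no interferon-stimulated gene passed the test, but most had higher values than in control lung. Of the 24 members tested 0 rose and 0 fell (limma adjusted p), where 0.62% of all genes rose and 0.114% fell. At an unadjusted p under 0.05, 9 members were higher and 0 lower, against 6.72% and 6.46% of all genes. The 3 tumor arrays were all above the 3 control arrays for 11 members, against 8.99% of all genes, and all below for 0 members, against 9.57%. Values were higher on average for 20 of 24 members, against 47% of all genes. The median difference of the members was 0.24 (log2), beside -0.01 over all genes.

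The largest lung difference was that of Zbp1, a sensor of Z-form nucleic acids that triggers cell death (chr2:173206612-173218959). Zbp1 read 5.29, 6.69 and 6.86 in tumor lungs, against 4.54, 4.85 and 4.89 in control lungs. All tumor lungs were above all control lungs, and tumor lung 1 lay nearest to them. The difference was 1.52 ± 0.42 (log2, SE, n = 3 each; limma adjusted p = 0.214), a 2.87-fold higher signal. Without tumor lung 1, the tumor array nearest to the controls, the difference was 2.02 with an adjusted p of 0.0288. In the other 16 of 17 alternatives Zbp1 did not pass in lung (limma adjusted p up to 0.468). A second Zbp1 probe set was below 4 on average in both lung groups and was not tested there.

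Oasl2, an oligoadenylate synthetase-like protein of the mouse, read 9.12, 9.91 and 10.03 in tumor lungs, against 8.73, 8.44 and 8.12 in control lungs. The groups did not overlap, and the difference was 1.26 ± 0.29 (limma adjusted p = 0.145, n = 3 each). The other OAS genes tested were closer to their controls in lung. Oas1a, which makes the oligoadenylates that activate RNase L, differed by 0.25 without overlap, and Oas2 by 0.13 with overlap.

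Samhd1, a hydrolase that depletes deoxynucleotides and so restricts retroviruses, had the smallest p of the members in lung. It read 11.09, 11.10 and 11.36 in tumor lungs, against 10.69, 10.69 and 10.56 in control lungs. The tumor values were all higher, by 0.54 ± 0.11 (limma adjusted p = 0.119, n = 3 each). The other 3 Samhd1 probe sets had tumor minus control values of 0.43 to 1.43 in lung (adjusted p = 0.261 to 0.604, every probe set fitted). Tumor and control lungs overlapped for the probe sets with 0.43 and with 1.43, and not for the remaining one. In the probe set with 1.43, control lungs 1 and 2 read 2.57 and 2.12.

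Trim30a, a tripartite motif protein that dampens NF-kappaB signalling in mouse macrophages, and Rtp4, a chaperone of receptors and a regulator of interferon responses, showed the same arrangement of arrays. Trim30a read 9.70, 10.28 and 10.44 in tumor lungs, against 9.50, 9.01 and 9.02 in control lungs, a difference of 0.97 ± 0.24 (limma adjusted p = 0.178, n = 3 each). Rtp4 read 9.40, 9.81 and 10.43 in tumor lungs, against 9.05, 8.88 and 8.81 in control lungs, a difference of 0.97 ± 0.26 (limma adjusted p = 0.202, n = 3 each). Neither gene had overlapping groups in lung. The second Trim30a probe set also had higher tumor values (difference 1.36, adjusted p = 0.161, every probe set fitted). Trim30a was the only member past the threshold when all 12 arrays shared 1 estimate of spread (adjusted p = 0.0497).

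Parp14, a mono-ADP-ribosyltransferase, and Irf9, the DNA-binding subunit of ISGF3, were also separated. Parp14 read 9.43, 9.62 and 10.29 in tumor lungs, against 9.11, 8.89 and 8.87 in control lungs (difference 0.82 ± 0.23, limma adjusted p = 0.225, n = 3 each). Irf9 read 9.20, 9.46 and 9.75 in tumor lungs, against 9.02, 8.87 and 8.57 in control lungs (difference 0.65 ± 0.19, limma adjusted p = 0.225, n = 3 each). In both genes tumor lung 3 was the highest array and no control lung reached a tumor lung.

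Ifitm3, which blocks the fusion of viruses with endosomes, had small differences with little spread. It read 14.80, 14.83 and 14.90 in tumor lungs, against 14.51, 14.60 and 14.59 in control lungs. The groups did not overlap, and the difference was 0.28 ± 0.08 (limma adjusted p = 0.229, n = 3 each). Ifih1, the sensor of long double-stranded RNA known as MDA5, and Eif2ak2, the RNA-activated kinase PKR, were separated with differences of 0.34 and 0.17.

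Not all members shared the direction in lung. Ifit1, which binds viral RNA that lacks a host-type cap, read 8.15, 8.19 and 8.94 in tumor lungs, against 8.78, 8.59 and 8.83 in control lungs. Tumor lungs 1 and 2 were below every control lung and tumor lung 3 was above them, and the mean difference was -0.30 ± 0.23 (limma adjusted p = 0.642, n = 3 each). Isg20, an RNA exonuclease, differed by -0.19, and Bst2, the tetherin that holds budding virions at the cell surface, by less than 0.01, with a sign that turned under median centring. In the ISG15 system the differences in lung were small. Trim25, a ubiquitin ligase that activates the sensor Ddx58, read 11.19, 11.28 and 11.03 in tumor lungs, against 10.95, 11.23 and 11.13 in control lungs. Its groups overlapped, and the difference was 0.07 (log2). Of the other Trim25 probe sets, one read 11.10, 11.14 and 11.16 in tumor lungs, against 10.93, 10.87 and 10.93 in control lungs, without overlap (difference 0.23, adjusted p = 0.317, every probe set fitted), and the other differed by -0.09. Usp18, the protease that removes ISG15, differed by 0.02.

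Markers of other cells moved with the lung groups. The 9 neutrophil markers tested were all higher in tumor lung, 4 of them past the threshold, and averaged 10.12, 10.61 and 9.64 in tumor lungs, against 5.55, 6.55 and 5.95 in control lungs, while Elane and Mpo stayed below 4 on all lung arrays. The 7 monocyte and macrophage markers averaged 8.81, 8.87 and 8.62 in tumor lungs, against 8.19, 8.25 and 8.17 in control lungs, with 6 of 7 higher and 0 past the threshold. The 2 B cell markers tested averaged 7.68, 8.12 and 7.39 in tumor lungs, against 4.24, 4.26 and 5.32 in control lungs, both higher and 1 past the threshold, with 3 further markers below 4 on all lung arrays. The neutrophil markers Camp, Ltf, Cxcr2 and Mmp8 and the monocyte and macrophage marker Itgam were below 4 on every control lung. The B cell marker Ms4a1 was below 4 on control lungs 1 and 2. These genes were tested because of their tumor lung values and could only come out higher. The control means that include them have no reliable lower level. Of 6 plasmacytoid dendritic cell markers 4 were below 4 on all lung arrays. Tumor lung 3, the array with the highest value of 16 of the 24 members, had the lowest neutrophil marker mean of the tumor lungs. The part of neutrophils and of the other cells in the lung differences was not tested, and 1 array cannot decide it. Without the pair of hepatocyte-rich lung arrays the members' median difference was 0.33; 0 members and 0 of all 7907 genes passed with the 4 arrays left, so that count says nothing about the members.

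**Figure D1:**
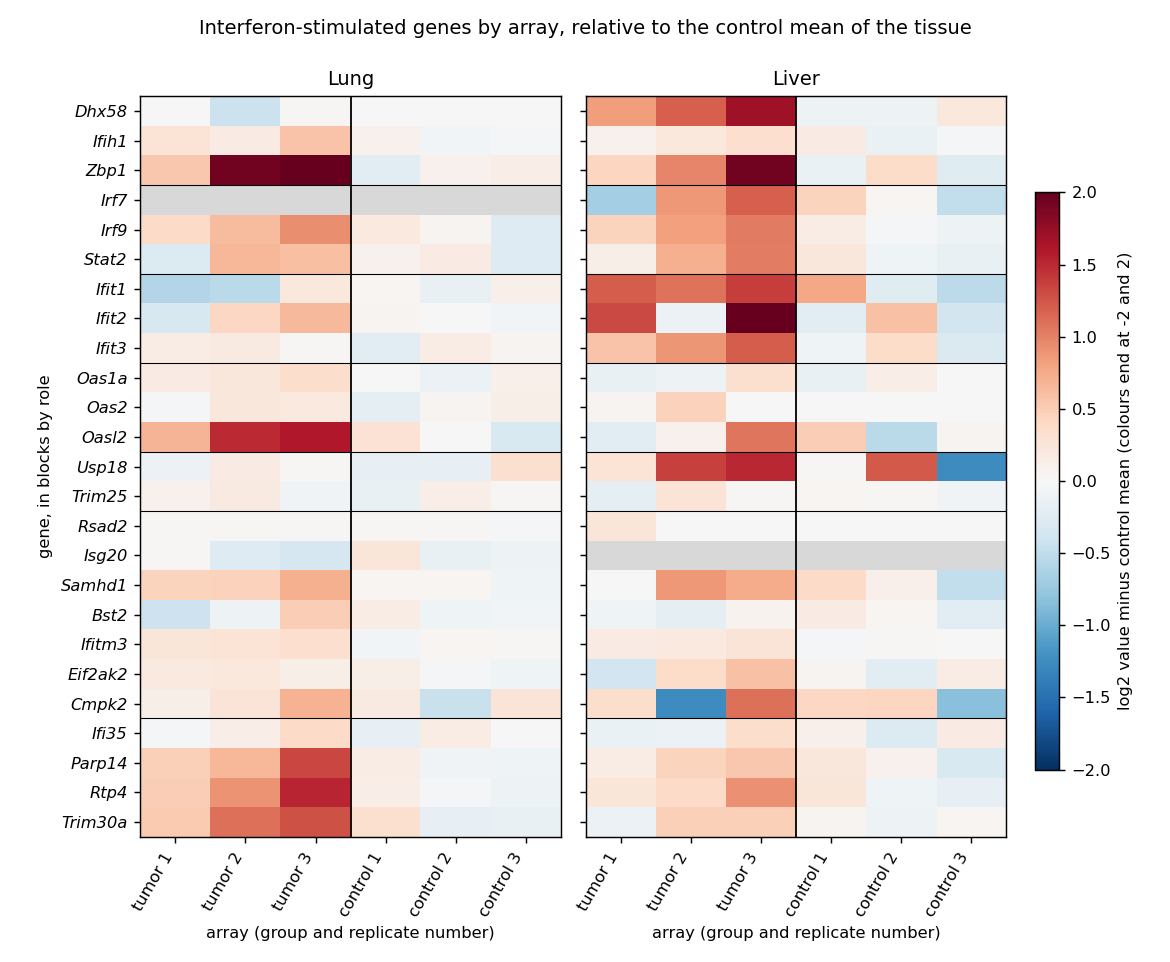
Log2 value of each tested interferon-stimulated gene on each array minus the control mean of the same tissue, lung on the left and liver on the right, tumor arrays left of control arrays; lines separate roles, grey marks a gene not tested in that tissue, and colours end at -2 and 2. Tumor lung 3 and tumor liver 3 hold most of the darkest red cells, and Zbp1 and Rtp4 are red on every tumor array.

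In tumor liver the members leaned the same way, with other genes in the lead. Again 0 of 24 members rose and 0 fell (limma adjusted p), where 0.635% of all genes rose and 1.23% fell. At an unadjusted p under 0.05, 6 members were higher and 0 lower, against 8.17% and 17.7% of all genes. The groups did not overlap for 7 members, all higher in tumor liver, against 10.4% of all genes, and 0 members were lower without overlap, against 22.7%. Values were higher on average for 23 of 24 members, against 39.7% of all genes, and the median difference was 0.35 (log2), beside -0.07 over all genes. The median was 0.54 without tumor liver 1, 0.53 without control liver 1 and 0.22 without tumor liver 3.

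Dhx58, the RNA helicase LGP2 that tunes signalling by Ifih1 and Ddx58 (chr11:100694884-100704271), had the smallest p of the members in liver. It read 5.06, 5.42 and 5.92 in tumor livers, against 4.13, 4.13 and 4.44 in control livers. Every tumor liver was above every control liver, and 2 control livers sat at a value that recurred on 7 of the 12 arrays within 0.05. The difference was 1.24 ± 0.23 (limma adjusted p = 0.0591, n = 3 each), a 2.36-fold higher signal. It passed the threshold after median centring (adjusted p = 0.0482), with trend and robust moderation (0.0492), with array weights (0.0446) and with all 12 arrays in 1 fit (0.00773), and it passed a threshold of 0.1. In 10 of 15 alternatives it did not pass, among them each liver array left out in turn (limma adjusted p up to 0.174). The other Dhx58 probe sets were near the lowest value in both liver groups.

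The 3 IFIT genes had tumor minus control values of 0.89 to 1.23 (log2) in liver. Ifit1 read 7.25, 7.12 and 7.42 in tumor livers, against 6.81, 5.79 and 5.50 in control livers, a difference of 1.23 ± 0.35 (limma adjusted p = 0.106, n = 3 each). Ifit3, of the same family, read 8.63, 8.94 and 9.26 in tumor livers, against 7.97, 8.42 and 7.76 in control livers, a difference of 0.89 ± 0.23 (limma adjusted p = 0.0971, n = 3 each). Neither gene had overlapping groups in liver. Ifit2, which also binds viral RNA, read 5.21, 3.78 and 6.08 in tumor livers, against 3.67, 4.47 and 3.53 in control livers. Tumor liver 2 lay within the control range of Ifit2, and the difference of 1.13 ± 0.62 did not pass (limma adjusted p = 0.303, n = 3 each).

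Among the factors that carry the signal, Irf9 read 9.11, 9.49 and 9.71 in tumor livers, against 8.81, 8.62 and 8.56 in control livers. No control liver reached a tumor liver, and the difference was 0.77 ± 0.17 (limma adjusted p = 0.0724, n = 3 each). Stat2, the subunit that activates transcription in ISGF3, read 8.48, 9.08 and 9.39 in tumor livers, against 8.61, 8.29 and 8.23 in control livers. Tumor liver 1 was below control liver 1, and the Stat2 difference was 0.61 ± 0.25 (limma adjusted p = 0.199, n = 3 each). Irf7, which amplifies interferon alpha expression, was above 4 on no lung array and read 4.02, 5.57 and 5.89 in tumor livers, against 5.15, 4.75 and 4.21 in control livers, with overlap.

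Zbp1 read 7.26, 7.80 and 8.77 in tumor livers, against 6.70, 7.20 and 6.59 in control livers. The groups did not overlap, and the difference was 1.11 ± 0.41 (limma adjusted p = 0.162, n = 3 each). A second Zbp1 probe set averaged 4.38 in tumor livers and 2.88 in control livers, with too few arrays above 4 for a test. Ifitm3 read 14.86, 14.89 and 14.95 in tumor livers, against 14.66, 14.73 and 14.70 in control livers, again without overlap and with a small difference of 0.20 ± 0.07 (limma adjusted p = 0.132, n = 3 each).

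Rtp4 read 8.9957, 9.14 and 9.66 in tumor livers, against 8.9955, 8.66 and 8.59 in control livers. Tumor liver 1 and control liver 1 were level to the third decimal, and the difference was 0.52 ± 0.21 (limma adjusted p = 0.193, n = 3 each). Usp18 was the most variable member of the ISG15 system. It read 7.05, 8.15 and 8.29 in tumor livers, against 6.81, 8.01 and 5.52 in control livers. Tumor and control livers overlapped, control liver 3 was the lowest array, and the difference was 1.05 ± 0.69 (limma adjusted p = 0.384, n = 3 each). Samhd1, at 7.14, 7.99 and 7.87 in tumor livers, against 7.51, 7.23 and 6.64 in control livers, and Oasl2, at 5.52, 5.82 and 6.81 in tumor livers, against 6.23, 5.19 and 5.78 in control livers, overlapped in liver.

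The remaining members were closer to their controls in liver. Trim30a read 7.75, 8.34 and 8.33 in tumor livers, against 7.92, 7.76 and 7.89 in control livers, and Parp14 read 8.75, 9.05 and 9.16 in tumor livers, against 8.83, 8.70 and 8.30 in control livers. Both overlapped, with tumor liver 1 inside or below the control range. Trim25 read 11.65, 12.11 and 11.86 in tumor livers, against 11.88, 11.87 and 11.77 in control livers, and its 3 probe sets did not share a direction in liver (-0.33, 0.04 and 0.51, log2). Rsad2, the viperin that makes a chain-terminating nucleotide, stayed within 4.08 to 4.37 on all 12 arrays, 10 of them within 0.05 of each other. Bst2 was the only tested member with a negative value in liver (-0.06), and its sign turned under quantile normalization and under median centring. Isg20, below 4 on every liver array, was not tested there.

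In liver the 4 neutrophil markers tested were all higher on average in tumor livers, 0 past the threshold. They averaged 7.63, 7.04 and 7.16 in tumor livers, against 4.23, 6.34 and 5.18 in control livers, with 7 further markers below 4 on all liver arrays. Csf3r overlapped, at 4.59, 5.28 and 4.44 in tumor livers, against 4.74, 4.85 and 4.59 in control livers. The mean of control liver 1 includes S100a8 at 2.56, under the filter value of 4. The 6 monocyte and macrophage markers tested averaged 8.24, 8.27 and 8.34 in tumor livers, against 8.15, 8.26 and 8.11 in control livers, 4 higher and 0 past the threshold. The 3 Kupffer cell markers averaged 12.10, 12.11 and 12.36 in tumor livers, against 11.67, 12.04 and 11.77 in control livers, all higher and 0 past the threshold. Their part in the liver differences was not tested.

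**Figure D2:**
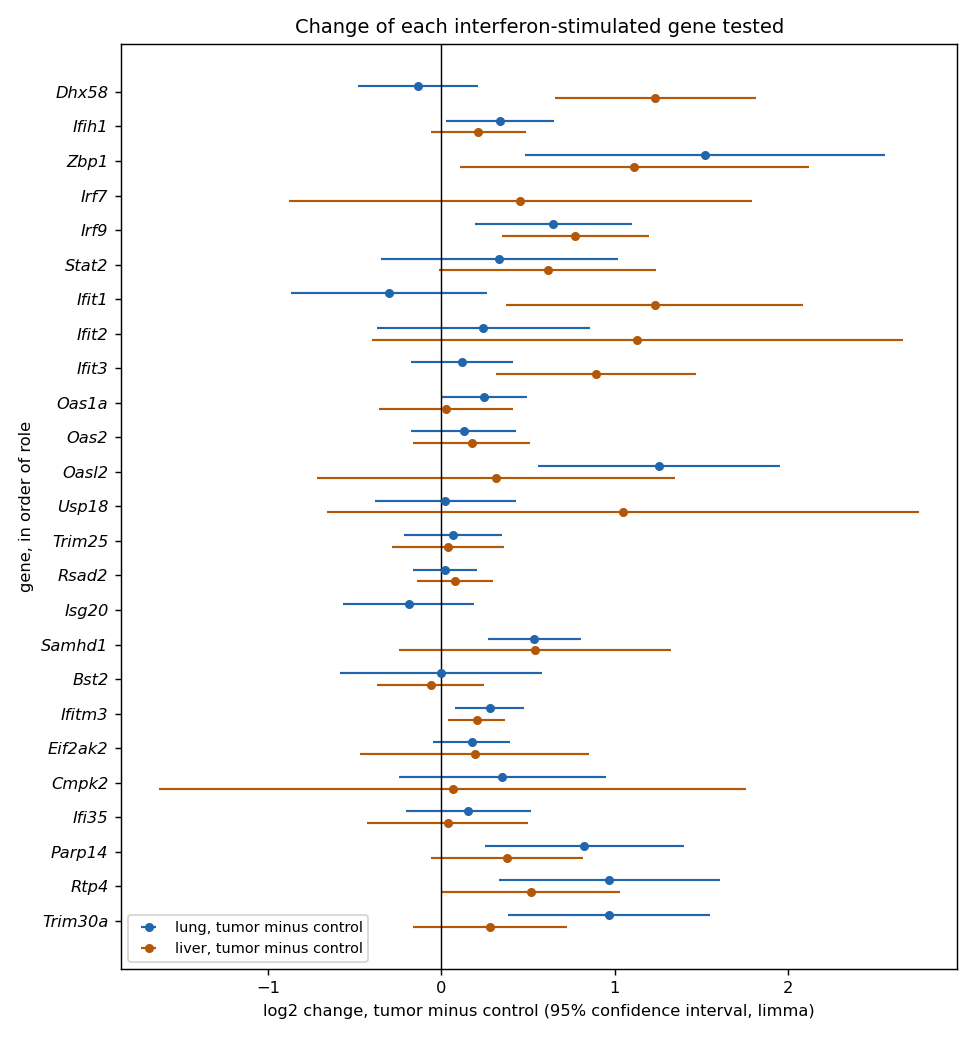
Tumor minus control difference (log2) of each tested member in lung (blue) and liver (orange), with the 95% confidence interval from limma; genes run down the page in order of role. Most points lie right of 0 in both tissues, intervals for Dhx58 and Ifit1 separate between tissues, and the liver intervals of Usp18, Cmpk2, Ifit2 and Irf7 are the widest.

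The level of the members as a set was read on each array. The median of the 24 members relative to the mean of the tissue was 0.04, 0.14 and 0.38 on tumor lungs 1 to 3, against -0.14, -0.11 and -0.09 on control lungs 1 to 3. In liver it was -0.05, 0.27 and 0.57 on tumor livers 1 to 3, against -0.04, -0.18 and -0.41 on control livers 1 to 3. Tumor lungs all lay above control lungs, whereas tumor liver 1 was level with control liver 1. Tumor liver 3 held the highest value of 18 of the 24 members and control liver 3 the lowest value of 11. The median over all genes tested stayed between -0.06 and 0.06 on every array. The labels do not say that a replicate number marks the same mouse in both tissues, so the high values of tumor lung 3 and tumor liver 3 cannot be ascribed to 1 animal.

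**Figure D3:**
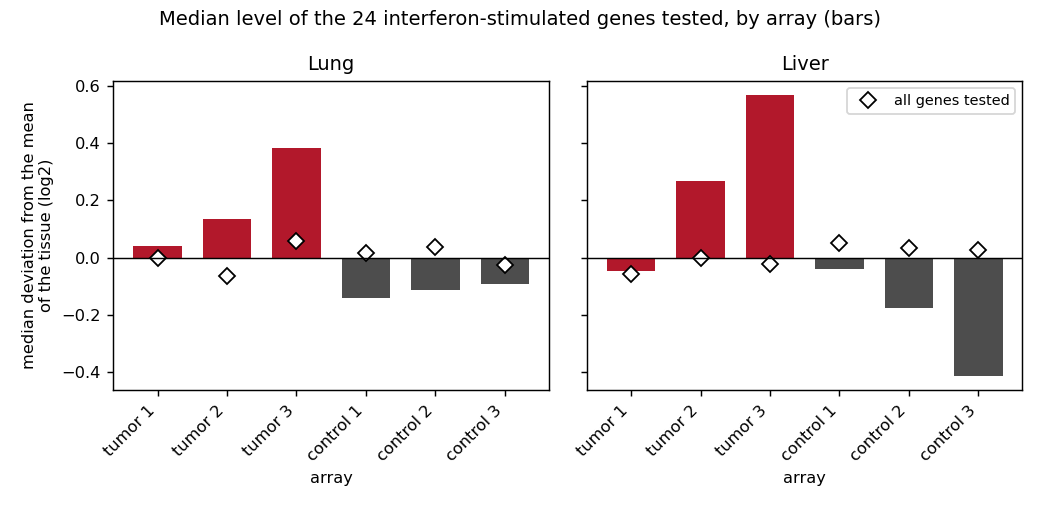
Bars give the median deviation of the 24 tested members from the tissue mean on each array (log2), red for tumor and grey for control; open diamonds give the same median over all genes tested. Bars reach 0.38 on tumor lung 3 and 0.57 on tumor liver 3, and the diamonds stay near 0.

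When the tumor effect was averaged over both tissues on all 12 arrays, 7 of 25 members rose and 0 fell, where 3.4% of all genes rose and 4.3% fell (limma adjusted p under 0.05). The genes that rose were Irf9, Ifitm3, Zbp1, Rtp4, Trim30a, Parp14 and Dhx58. Irf9 rose by 0.71 ± 0.13 (SE, adjusted p = 0.0156), Ifitm3 by 0.24 ± 0.05 (adjusted p = 0.0219) and Zbp1 by 1.32 ± 0.31 (adjusted p = 0.0349). Rtp4 rose by 0.74 ± 0.18, Trim30a by 0.62 ± 0.16, Parp14 by 0.60 ± 0.16 and Dhx58 by 0.55 ± 0.14 (log2, adjusted p = 0.0357 to 0.0465). The mean effect of Dhx58 came from liver, since its lung difference was -0.14 ± 0.14. By role, the members that rose were 2 of 3 tested sensors, 1 of 3 transcription factors, 1 of 7 antiviral effectors and 3 of 4 other interferon-induced genes, while 0 of 3 IFIT genes, 0 of 3 OAS genes and 0 of 2 genes of the ISG15 system passed. Of the 25 members 23 had a positive mean effect, against 40.4% of all genes, and at an unadjusted p under 0.05 12 were higher and 0 lower, against 9.07% and 15% of all genes.

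This comparison takes lung and liver arrays as independent samples, although both tissues came from the same mice. With the replicate number as a block 5 members rose, and Parp14 (limma adjusted p = 0.0503) and Dhx58 (0.0519) no longer passed. Leaving out single arrays changed the count of members that rose to between 1 and 9. It was 1 without control liver 1, 2 without control lung 1, 2 or 3, tumor liver 3 or control liver 3, 3 without tumor lung 2 or control liver 2, and 4 without tumor lung 3 or tumor liver 2. Without both hepatocyte-rich lung arrays 3 members rose, Irf9, Zbp1 and Rtp4. Irf9 passed in all 22 alternatives, with adjusted p values of 0.00645 to 0.0372, the lowest after median centring and the highest without control liver 2.

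**Figure D4:**
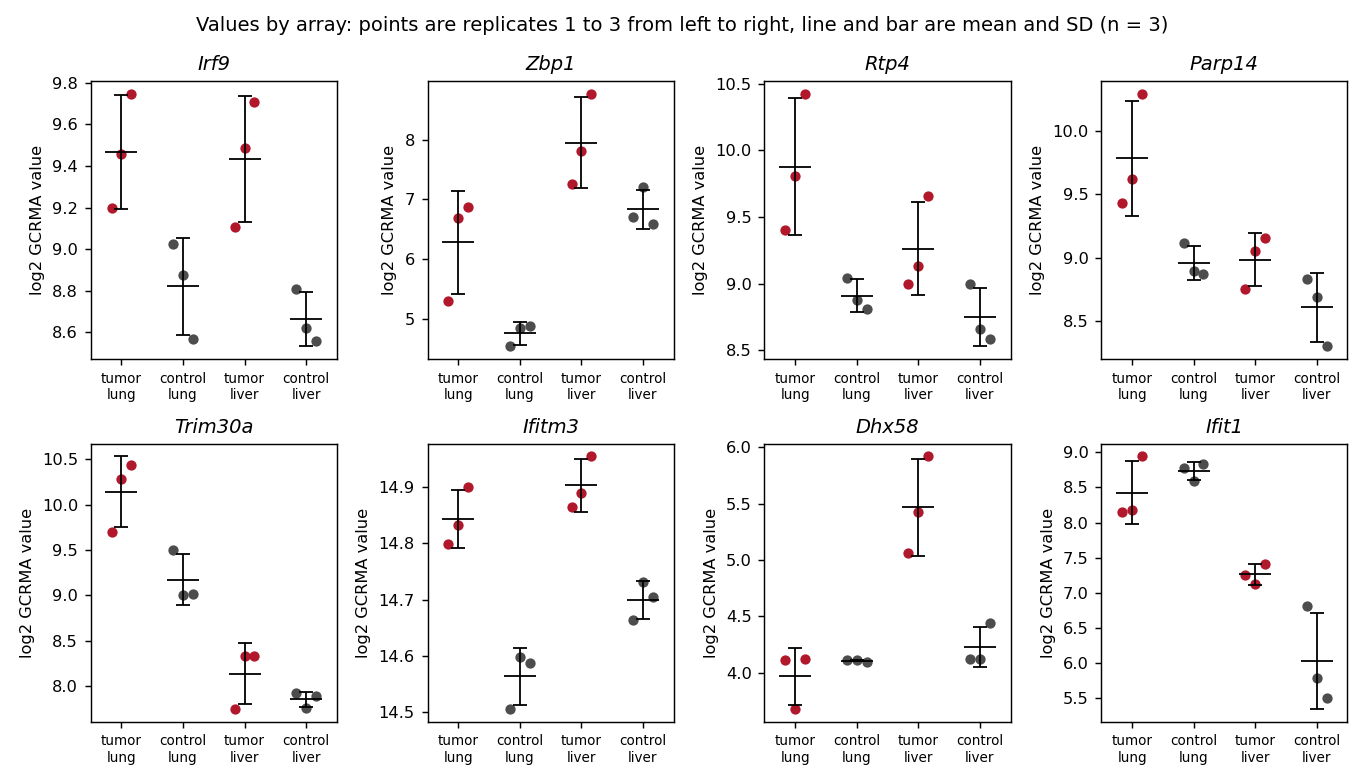
Log2 GCRMA values of the 7 members that rose in the mean over both tissues, and of Ifit1; points are replicates 1 to 3 from left to right, tumor red and control grey, with the mean and SD of 3 arrays, and each panel has its own axis. Tumor and control points of Irf9, Zbp1 and Ifitm3 separate in both tissues, whereas those of Dhx58 and Ifit1 separate in liver only.

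The separation of tumor from control arrays was set side by side in both tissues. Of the 11 members whose groups did not overlap in lung and the 7 in liver, 4 were on both lists (36.4% of the lung list and 57.1% of the liver list): Irf9, Zbp1, Ifitm3 and Rtp4. Over all 7194 genes tested in both tissues 1.89% were separated and higher in both, and Rtp4 was separated in liver only at the fourth decimal. A positive difference in both tissues was seen for 20 of the 23 members tested in both, against 21.3% of all genes.

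The difference between the tissues was tested directly as the lung effect minus the liver effect. Dhx58 alone passed, with -1.37 ± 0.29 (limma adjusted p = 0.0494, 12 arrays), where 0.522% of all genes had a lower and 1.03% a higher effect in lung. In lung Dhx58 read 4.11, 3.68 and 4.13 in tumor lungs, against 4.11, 4.11 and 4.10 in control lungs, at the recurring value except for tumor lung 2. The call was lost in 16 of 20 alternatives, with adjusted p values up to 0.121, and among arrays left out in turn it was kept only without tumor liver 1 (adjusted p = 0.0276). Ifit1 and Ifit3 had the next smallest p values, with differences of -1.53 ± 0.44 (adjusted p = 0.121) and -0.77 ± 0.28 (adjusted p = 0.195). Without control liver 1 Ifit1 passed as well (adjusted p = 0.0353). The genes that led in lung did not differ between tissues past the threshold, with 0.94 (95% interval -0.26 to 2.14) for Oasl2, 0.69 (-0.02 to 1.39) for Trim30a, 0.41 (-0.99 to 1.81) for Zbp1 and -0.12 (-0.72 to 0.47) for Irf9.

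The levels of these genes in control lung and control liver were compared without regard to tumor. Of 25 members 9 were higher in lung and 7 were lower (limma adjusted p under 0.05, 6 control arrays), where 45.6% of all genes were higher and 35.5% lower, so members differed between the tissues at shares no higher than those of all genes. After quantile normalization 11 members were lower. Isg20, above 4 on no control liver, and Irf7, above 4 on no control lung, are in these counts. Each was tested because of its values in the other tissue and could only come out higher there. The largest difference in favour of lung was that of Isg20, at 9.75, 9.35 and 9.40 in control lungs, against 3.51, 3.17 and 3.64 in control livers (6.06 ± 0.17, adjusted p = 6.69e-07), and the liver values lay below 4. Ifit2 read 8.39, 8.35 and 8.29 in control lungs, against 3.67, 4.47 and 3.53 in control livers (4.45 ± 0.25). Control livers 1 and 3 were below 4 for Ifit2 too, so the sizes for Isg20 and Ifit2 are not reliable. Samhd1 was higher by 3.52 ± 0.23, and Ifit1, Oasl2, Cmpk2 and Ifit3 by 2.19 to 2.70. Cmpk2 is a mitochondrial nucleotide kinase next to Rsad2 on chromosome 12.

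Control liver had the higher level of Zbp1, at 4.54, 4.85 and 4.89 in control lungs, against 6.70, 7.20 and 6.59 in control livers (-2.07 ± 0.19, limma adjusted p = 0.000114, n = 3 each). Bst2 read 9.33, 9.10 and 9.13 in control lungs, against 11.39, 11.27 and 11.02 in control livers (-2.04 ± 0.13), and Stat2 read 7.10, 7.19 and 6.77 in control lungs, against 8.61, 8.29 and 8.23 in control livers (-1.35 ± 0.16). All of these groups were separate. Irf9, Rtp4, Parp14 and Ifitm3, with differences from -0.14 to 0.35, did not pass between the tissues.

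**Figure D5:**
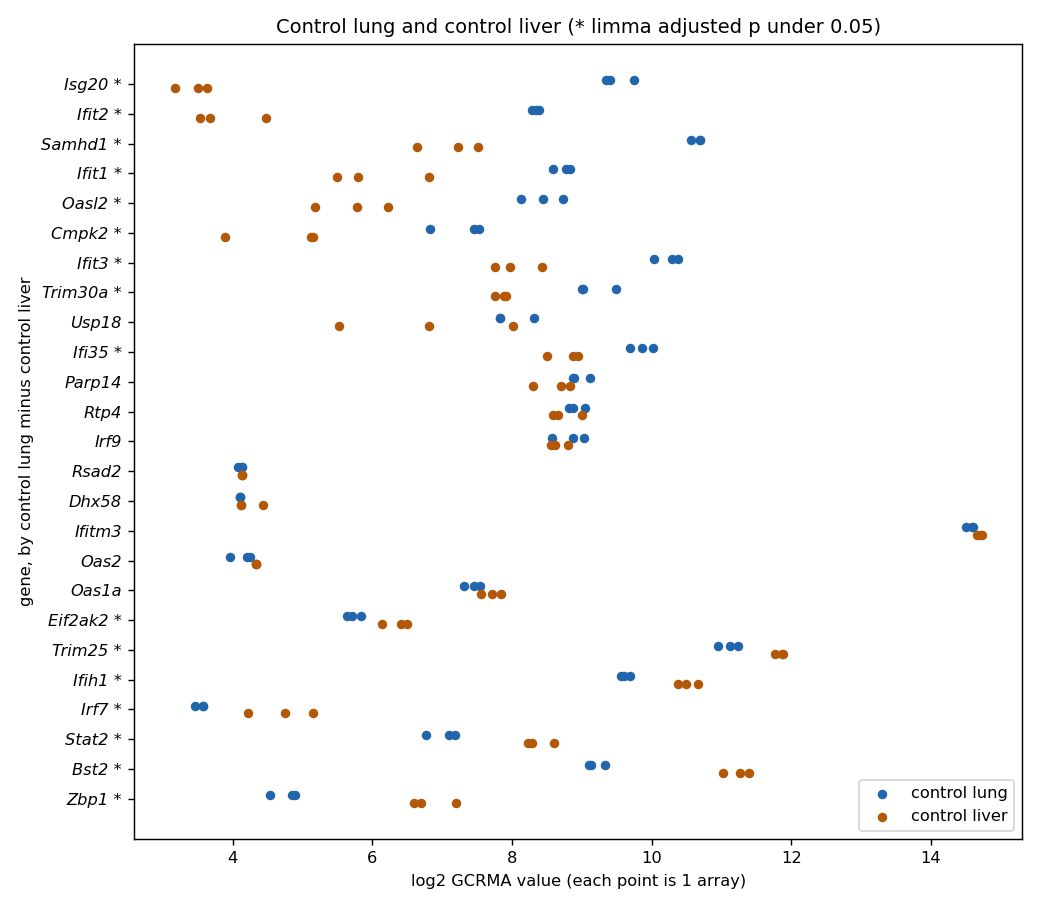
Log2 GCRMA values of the 25 members on the 3 control lung arrays (blue, upper point row) and the 3 control liver arrays (orange, lower point row), ordered by control lung minus control liver; an asterisk marks a limma adjusted p under 0.05. Isg20, Ifit2 and Samhd1 lie far higher in lung, and Zbp1, Bst2 and Stat2 higher in liver.

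The genes around the members were read from a list of 90 genes of interferon signalling, of which 70 had a probe set and 54 were tested in each tissue. The interferon genes Ifnb1, Ifna4, Ifna5, Ifna9, Ifna11, Ifnab and Ifng read the lowest value of 2.04 on all 12 arrays, and Ifna1 read 2.05 to 2.64. Ifna2 read 7.14 to 7.52 with the value 7.23 on most arrays, and differed by 0.02 in lung and 0.16 in liver. Among the receptors and kinases, Ifnar1 differed by 0.18 in lung and -0.21 in liver, Ifnar2 by 0.29 and 0.11, Jak1 by 0.21 and 0.14 and Tyk2 by 0.19 and 0.01, none past the threshold.

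In lung 44 of the 54 listed genes had higher values in tumor-bearing mice, against 47% of all genes. Of the 54 genes 3 rose (limma adjusted p under 0.05), beside the 0.62% over all genes. The list was chosen with earlier results of these data known. Ifitm6 and Ddx60 were above 4 on no control lung, so they were tested because of their tumor lung values and could only come out higher. Ifitm6, an interferon-induced transmembrane family gene of myeloid cells, read 11.28, 10.40 and 10.47 in tumor lungs, against 2.81, 3.63 and 4.00 in control lungs (7.24 ± 0.38, adjusted p = 0.00262), with all control lungs under the filter value of 4. Ifitm1, of the same family, read 12.69, 12.77 and 12.56 in tumor lungs, against 10.73, 11.11 and 11.02 in control lungs (1.72 ± 0.13, adjusted p = 0.0099). The groups of both genes were far apart, as were the neutrophil markers on the same arrays. A link of these genes with neutrophils was not tested. Sting1, the adaptor for cytosolic DNA, read 5.46, 5.52 and 5.56 in tumor lungs, against 4.78, 4.83 and 4.78 in control lungs (0.72 ± 0.08, adjusted p = 0.0273). Control lungs 1 and 3 sat at a recurring value, 4.7794, that was also read on tumor livers 1 and 3. The lung call was lost for Sting1 in 9 of 16 alternatives, among them each of the 6 lung arrays left out in turn (adjusted p up to 0.276). It was lost for Ifitm1 in 5 of 17, among them without control lung 1 and without control lung 3 (adjusted p up to 0.206), and for Ifitm6 in 2 of 17 (up to 0.0619).

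In liver 43 of 54 had higher values, against 39.7% of all genes, and 2 rose, beside 0.635% of all genes. Socs3, a feedback inhibitor of Jak kinases that is induced by interleukin 6 as well as by interferons, read 11.59, 11.19 and 11.47 in tumor livers, against 9.62, 9.71 and 9.75 in control livers (1.72 ± 0.12, adjusted p = 0.0323). Trim34a, a tripartite motif gene, read 8.07, 8.26 and 8.07 in tumor livers, against 7.19, 7.10 and 7.27 in control livers (0.95 ± 0.09, adjusted p = 0.0323). No control liver came near the tumor values of either gene. Both calls were lost in 7 of 16 alternatives, among them each of the 6 liver arrays left out in turn, with adjusted p values up to 0.122 for Socs3 and 0.129 for Trim34a. The mean of the Trim34a probe sets differed by 0.47 (log2). Socs3 also differed by 1.57 in lung, where its adjusted p was 0.0585.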

How the data were processed

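Total RNA was hybridised to Affymetrix arrays, 1 array per tissue sample. The deposited log2 values per probe set were made by the authors with GCRMA, per the submitters' processing notes, which also name limma; neither comes with a version or settings here. Precision is limited by the number of arrays. Tests used the 20380 of 22626 probe sets that had a single gene symbol, leaving out 691 with several and 1555 without an entry. For each of 12393 genes the probe set brightest on average over 12 arrays was taken, and tested if above 4 on at least 3 of the arrays fitted. Comparisons used limma 3.58.1 (lmFit, eBayes) in R 4.3.3 with Benjamini-Hochberg adjustment over all genes tested and a threshold of 0.05, and the code was tested on simulated data. Lung and liver were each fitted on their 6 arrays, control lung and liver on the 6 control arrays, and the mean and difference of the tumor effects on all 12. The members and lists were chosen with earlier results of these data known. Values by array are given for members past the threshold, for those with the largest difference by role and tissue, and for the 3 largest in each direction between control tissues; a few more were named after their values were seen. Same-numbered tumor and control arrays of a tissue did not deviate together (correlations -0.363 to 0.285), so numbers were not used as pairs within a tissue. Tumor and control arrays come from different mice, so this check cannot show whether a number marks a mouse. Between lung and liver every array correlated best with its own number, at 0.02 to 0.09. Fits with the number as a block are given as an alternative. Alternatives covered filter, probe sets, normalization, moderation, weights, threshold, replicate block and arrays left out.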

Additional observations from a re-analysis of the deposited data

Results flagged for a closer look

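The tumor effect of Dhx58 was lower in lung than in liver by a test of the difference itself (lung effect minus liver effect -1.37, log2, limma adjusted p = 0.0494). The effects of Ifitm6 (6.46, adjusted p = 0.000565) and Ifitm1 (1.28, adjusted p = 0.0163) were higher in lung than in liver by the same test. Ifitm6 was tested because of its tumor lung values (10.40 to 11.28). It read 3.16 to 4.41 in tumor livers, 2.81 to 4.00 in control lungs and 3.06 to 3.07 in control livers, at or near the filter value of 4, so the size of its difference has no reliable lower level.

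The probe set listed for both Isg15, the ubiquitin-like protein tag, and Gm9706 was in no test. Its mean was 7.72 ± 0.59 in tumor lungs and 7.12 ± 0.31 in control lungs (SD, n = 3 each), a difference of 0.61. In tumor livers it was 7.77 ± 0.39 and in control livers 7.13 ± 0.23, a difference of 0.64. The lowest tumor array was above the highest control array in both tissues, by less than 0.05, and which of the 2 genes gave the signal was not tested.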

How the results depend on the processing

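Members past the threshold numbered 0 in lung and became 1 with all 12 arrays in 1 fit and 0 to 1 with single arrays left out. In liver the 0 became 2 after median centring, 2 with trend and robust moderation, 1 with array weights, 3 at a threshold of 0.1 and 4 with all 12 arrays in 1 fit, and stayed 0 with single arrays left out. The 1 member with a lower effect in lung than in liver became 0 without a filter, with a filter above 6, with every probe set, with the mean of probe sets, after quantile normalization, with trend and robust moderation, and without both hepatocyte-rich lung arrays, and 0 to 1 with single arrays left out. The 7 members that rose in the mean of both tissues became 2 without a filter, 3 without both hepatocyte-rich arrays and 1 to 9 with single arrays left out. Between control tissues the members' median of 0.16 became 0 without a filter and 0.35 with a filter above 6, and the 7 lower members became 11 after quantile normalization. With the replicate number as a block, 0 members passed in lung, 0 in liver, 0 in the difference and 5 in the mean, where Parp14 (adjusted p = 0.0503) and Dhx58 (0.0519) no longer passed; of the listed pathway genes Ifitm6, Ifitm1 and Sting1 in lung and Socs3 and Trim34a in liver no longer passed (0.0556 to 0.201), nor Ifitm1 in the difference (0.0614); every array correlated best with its own number in the other tissue, but only at 0.02 to 0.09, a hint from the data. Signs turned in lung for Rsad2 (-0.029, quantile normalization) and Bst2 (0.00383 after median centring, 0.17 without both hepatocyte-rich arrays), and in liver for Bst2 (0.00387 after quantile normalization, 0.056 after median centring) and Cmpk2 (-0.20, array weights). With single arrays left out, lung values ran from -0.062 to 0.19 for Usp18, -0.25 to 0.20 for Bst2, -0.012 to 0.13 for Trim25 and -0.21 to 0.011 for Dhx58, and liver values from -0.0018 to 0.48 for Eif2ak2, -0.13 to 0.12 for Ifi35, -0.12 to 0.12 for Oas1a, -0.17 to 0.019 for Bst2, -0.083 to 0.15 for Trim25, -0.45 to 0.73 for Cmpk2 and -0.061 to 0.58 for Oasl2. The cause of these shifts was not tested. Genes called among all genes ranged over the alternatives from 0 to 231 in lung (main 58), 0 to 828 in liver (main 144), 14 to 328 for the difference (main 131) and 242 to 1103 for the mean (main 650).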
